A study of Homo sapiens with 32 samples.

Results

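Cannabidiol (CBD) has been reported to bind or act on a varied set of human proteins, and 10 of these were followed here at the level of their transcripts in a neuroblastoma cell line. They were the mitochondrial channels VDAC1, VDAC2 and VDAC3, the lipid carrier FABP5, the enzyme FAAH, the nucleoside transporter SLC29A1, the ion channels TRPV1 and TRPV2, and the G protein-coupled receptors CNR1 and GPR55. The members were taken by gene symbol, and all 10 were found among the 22610 entries of the deposited expression table. The cells were SK-N-BE(2), a human neuroblastoma line, treated with 20 µM CBD dissolved in ethanol or with vehicle (0.1% ethanol) for 3, 6, 12 or 24 h. Each of the 8 groups held 4 samples, 32 in all, and each time point had its own vehicle controls. All groups came from the same line grown in wells of multiwell dishes, so that ethanol exposure and time in culture were shared by CBD and vehicle. The sources describe the treatments as made in quadruplicate, and p-values measure the spread between these samples, which may be in part technical.

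The members belong to different parts of the cell. VDAC proteins form the main pores of the outer mitochondrial membrane, through which ATP, ADP and other small metabolites pass. FABP5 carries fatty acids and endocannabinoids through the cytosol, FAAH is the hydrolase that breaks down the endocannabinoid anandamide, and SLC29A1 (also called ENT1) moves adenosine and other nucleosides across the plasma membrane. CNR1 is the main cannabinoid receptor of the brain, GPR55 is a lysophosphatidylinositol receptor that also responds to some cannabinoids, and TRPV1 and TRPV2 are cation channels, TRPV1 being the capsaicin receptor. Transcript levels say which of these proteins could be made in the line, and nothing of binding.

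Values are FPKM, in which reads are divided by transcript length and by library size, so that levels can be compared between genes. FPKM hold no read number. Relative depth, estimated from the smallest non-zero values of 1585 rarely detected genes, ranged 1.52-fold between samples, from 0.787 to 1.19 of the median. The root mean square distance of a sample to the mean of the other replicates of its group ranged from 0.405 to 0.485 (log2 scale). The median was 0.445, and the highest was CBD replicate 1 at 3 h. That library also stood apart at some members. FABP5 was at 419 FPKM against 495 to 525 in the other replicates, and SLC29A1 at 86.1 against 69.2 to 71.5. Without it 493 entries were called at 3 h, against 310 with it. The labelled tissue of origin was checked with 12 markers of adrenergic neuroblastoma, all of which were above 1 FPKM in vehicle, led by MYCN at 1526 FPKM. None of 6 keratinocyte markers reached 1 FPKM, and 2 of 7 markers of mesenchymal neuroblastoma did, FOSL2 and SNAI2. In bulk RNA, a smaller share of cells with a transcript and less of it per cell cannot be told apart.

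Of the 10 reported targets, 7 were expressed, 1 was low and 2 were near 0. Here expressed means a mean of at least 1 FPKM over the 16 vehicle samples, near 0 means under 0.1 FPKM, and low lies between them. Of all 22610 entries 55.4% were expressed and 27.6% were near 0. The classes were the same in the 16 CBD samples. The plot of the levels by sample shows how far apart the members lie.

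**Figure D1:**
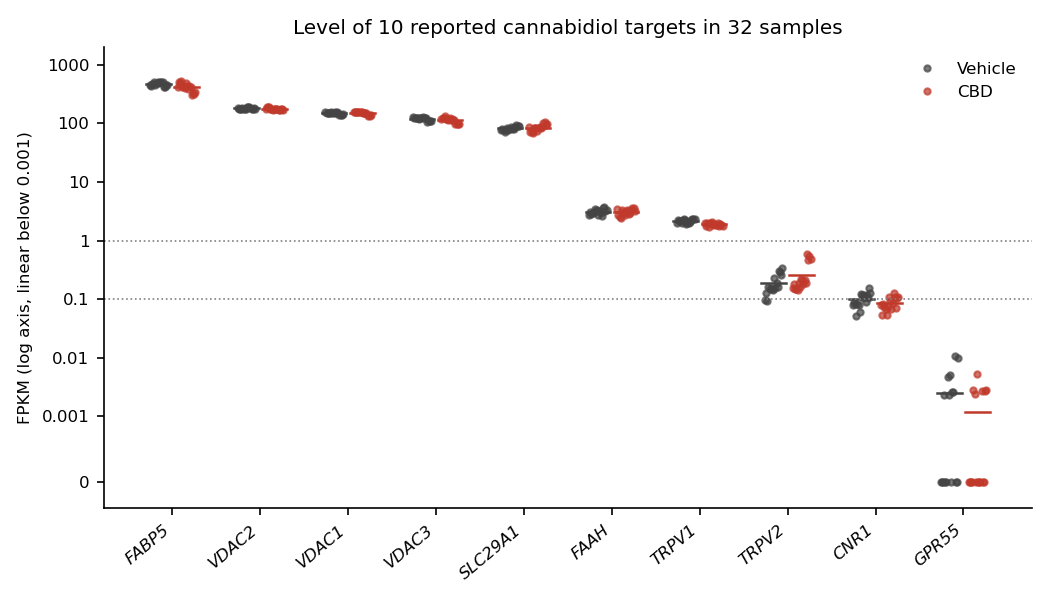
FPKM of the 10 members in each of the 16 vehicle (grey) and 16 CBD (red) samples, on a log axis that is linear below 0.001; short lines are means, and dotted lines mark 0.1 and 1 FPKM. FABP5, the 3 VDAC genes and SLC29A1 lie between 69.2 and 525 FPKM in all samples, FAAH and TRPV1 between 1.67 and 3.70, TRPV2 and CNR1 below 0.6, and GPR55 at or near 0.

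FABP5 was the most abundant, at 470 ± 32.0 FPKM (mean ± SD, 16 vehicle samples), which placed it 141st of all entries. The 3 VDAC transcripts followed. VDAC2 was at 180 ± 5.28 FPKM, VDAC1 at 149 ± 6.91 and VDAC3 at 120 ± 7.28, ranked 390th, 470th and 595th. Within single vehicle groups the SD of VDAC3 was 1.34 to 2.65 FPKM. SLC29A1 was at 82.2 ± 6.10 FPKM. In this order each gene was above the next in 16 of 16 vehicle samples, and their ranges did not overlap, although VDAC1 was only 1.25 times VDAC3.

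A gap of 26.4-fold separated SLC29A1 from FAAH. FAAH was at 3.12 ± 0.316 FPKM and ranged from 2.65 to 3.70 in vehicle, and TRPV1 was at 2.16 ± 0.145 and ranged from 1.94 to 2.37. Both lay near the middle of the table, with 54.7% and 51.0% of entries below them.

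TRPV2, a channel of the same family as TRPV1, was at 0.188 ± 0.0736 FPKM in vehicle and ranged from 0.0931 to 0.334. CNR1 was at 0.0994 ± 0.0267 and ranged from 0.0523 to 0.155, just under the limit used for near 0. Its vehicle means were 0.0769, 0.0867, 0.107 and 0.127 FPKM at 3, 6, 12 and 24 h. Those at 12 and 24 h lay above that limit, and no sample of CNR1 was listed at 0. Of all neighbours in the order of levels, only TRPV2 and CNR1 had overlapping vehicle ranges, but TRPV2 was the higher of the pair in 16 of 16 vehicle samples.

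GPR55 was listed at 0 in 18 of 32 samples, 8 vehicle and 10 CBD. Its 14 other values ran from 0.00235 to 0.0107 FPKM. At these levels no change of GPR55 could be read, and an FPKM of 0 cannot tell absence from too few reads.

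The positions of the genes bear on how their reads can be counted, and are given on GRCh37 from GENCODE. VDAC1 is at chr5:133307562-133340666 on the minus strand, VDAC2 at chr10:76969912-76991206 on the plus strand and VDAC3 at chr8:42249142-42263455 on the plus strand. FABP5 is at chr8:82192771-82197012 on the plus strand, FAAH at chr1:46859989-46879520 on the plus strand and SLC29A1 at chr6:44187290-44201879 on the plus strand. TRPV1 is at chr17:3468738-3512705 on the minus strand, TRPV2 at chr17:16318885-16340317 on the plus strand, CNR1 at chr6:88849583-88876066 on the minus strand and GPR55 at chr2:231772033-231825781 on the minus strand.

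Several members have processed pseudogenes whose sequence matches them over the length of a 50-base read. Of the 50-base words in the transcripts of FABP5, 34.6% also occur in other genes on the same strand, all of them pseudogenes, with FABP5P7 holding 33.1%. For VDAC2 this share was 35.4%, all in VDAC2P5, for VDAC1 17.1% and for VDAC3 2.49%. FAAH, SLC29A1 and CNR1 shared no such word. The authors allowed reads to align to at most 2 places, so that FABP5, VDAC1 and VDAC2 are uncertain to the extent that their reads were divided. Among copies named after members, FABP5P3 and FAAHP1 are listed in the table, at up to 0.14 and 0.0264 FPKM.

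TRPV1 overlaps other genes on its own strand. The end of SHPK, the kinase of sedoheptulose, covers 1172 bases of the TRPV1 locus, and a protein-coding readthrough gene (ENSG00000262304) holds 27.8% of the TRPV1 words. In all, 31.4% of the TRPV1 words also occur in other genes on the same strand, 60 genes and none of them pseudogenes. SHPK ranged from 2.87 to 4.62 FPKM, above TRPV1 in level. TRPV2 is overlapped by an lncRNA gene on its own strand, over 1246 bases and with 3.19% of its words. Another on the opposite strand covers 1119 bases and holds 7.14%. The part of these genes in the TRPV2 values was not tested. GPR55 has antisense lncRNA genes over it, with 12.2% of its words on the opposite strand, and the study states a stranded library.

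The first question was whether CBD changed these transcripts at each time. Each difference was estimated in limma from log2(FPKM + 1) over the 12621 entries with a mean of at least 1 FPKM, and called at a Benjamini-Hochberg adjusted p under 0.01. Of the 10 members 7 passed this filter. At 3 h and at 6 h none of the 7 was called by limma, with 2 and 3 of them at an unadjusted p under 0.05, against calls of 2.46% and 10.2% of all entries tested. The 310 entries called at 3 h became 493, 169 or 196 without CBD replicate 1, 2 or 3 and 184 or 164 without vehicle replicate 3 or 4, and with the samples of each time fitted alone 29 were called at 3 h and 425 of 1288 at 6 h. At 12 h 3 of 7 were called, all lower with CBD, where 20.1% of all entries were called and 11.2% were called lower. At 24 h 3 of 7 were called, again all lower, where 42.1% of all entries were called and 21.3% were called lower. Counts of 3 in 7 at 24 h lie close to the share of all entries. Over the 4 times together, an F-test called 4 of 7 members (FABP5, VDAC3, TRPV1 and VDAC1) and 47.2% of all entries.

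**Figure D2:**
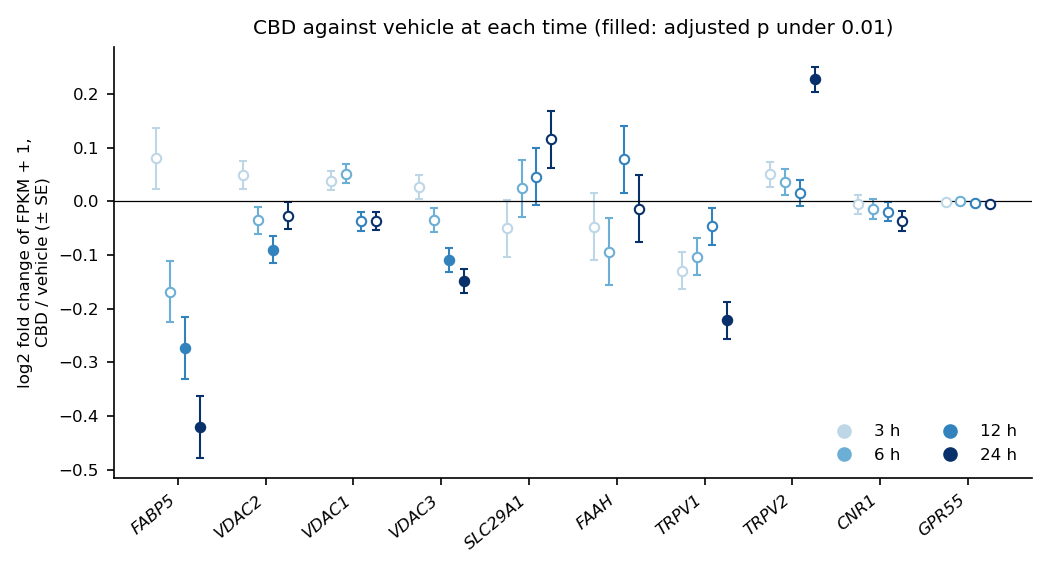
Log2 fold change of FPKM + 1, CBD over vehicle, at 3, 6, 12 and 24 h (light to dark) for each member, with the standard error from limma; filled points have an adjusted p under 0.01. FABP5 and VDAC3 fall below 0 and are called at 12 and 24 h, TRPV1 is called lower at 24 h and TRPV2 higher; TRPV2, CNR1 and GPR55 come from the fit without a filter on low FPKM.

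FABP5, the fatty acid and endocannabinoid carrier, had the largest decrease of the 7 tested members at 12 and 24 h. At 24 h the 4 CBD samples were at 305, 324, 320 and 339 FPKM and the 4 vehicle samples at 416, 416, 441 and 452. All CBD samples lay below all vehicle samples. The log2 fold change was -0.42 ± 0.06 (SE, adjusted p = 8.01e-07), and the mean FPKM fell by 25.4%. At 12 h the CBD samples were at 427, 389, 424 and 415 FPKM against 484, 503, 514 and 499 in vehicle, again without overlap, with a log2 fold change of -0.27 ± 0.06 (adjusted p = 0.000608).

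The earlier times of FABP5 were less clear. At 6 h the change was -0.17 ± 0.06 (adjusted p = 0.0408), and CBD replicate 4, at 491 FPKM, lay within the vehicle range of 456 to 509 while the other 3 CBD samples were at 398 to 434. Without that sample the change at 6 h was called (adjusted p = 0.00465). The adjusted p at 6 h was 0.17 without CBD replicate 3 and 0.142 with the samples of that time fitted alone. At 3 h CBD replicate 1 was at 419 FPKM, below the vehicle samples at 439 to 476, and the other 3 CBD samples were above them at 495 to 525. The change at 3 h was 0.08 ± 0.06 (adjusted p = 0.433).

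VDAC3 was lower with CBD from 12 h on. At 12 h the CBD samples were at 114, 117, 116 and 116 FPKM and the vehicle samples at 126, 125, 125 and 123. At 24 h the CBD samples were at 95.5, 98.0, 96.3 and 99.0 FPKM and the vehicle samples at 104, 108, 109 and 110. The groups did not overlap at either time. The log2 fold change was -0.11 ± 0.02 at 12 h (adjusted p = 0.000523) and -0.15 ± 0.02 at 24 h (adjusted p = 3.77e-06), and the mean FPKM fell by 9.88% at 24 h.

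The other 2 VDAC genes moved less. VDAC2, the isoform known to hold the apoptosis effector BAK at mitochondria, was at 176, 176, 179 and 170 FPKM with CBD at 12 h against 191, 187, 189 and 180 in vehicle, without overlap between the groups. Its log2 fold change at 12 h was -0.09 ± 0.03 (adjusted p = 0.0083), close to the threshold, and the call was lost without any 1 of 6 of the 8 samples at that time (adjusted p up to 0.0358, without CBD replicate 4). At 24 h VDAC2 was not called (-0.03 ± 0.03, adjusted p = 0.40), and its CBD range of 166 to 176 FPKM overlapped the vehicle range of 173 to 179.

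VDAC1, the most studied isoform and a docking site of hexokinase, was not called at any single time. At 6 h the CBD samples were at 155 to 157 FPKM and the vehicle samples at 148 to 153, without overlap, with a log2 fold change of 0.05 ± 0.02 (adjusted p = 0.0366). At 24 h CBD was at 134 to 136 FPKM and vehicle at 136 to 143, overlapping, with a change of -0.04 ± 0.02 (adjusted p = 0.077). The F-test over the 4 times called VDAC1 (adjusted p = 0.00455), its differences being above 0 at 3 and 6 h and below 0 at 12 and 24 h; that call was lost under quantile normalization (adjusted p = 0.743) and without vehicle replicate 4 at 6 h (adjusted p = 0.0102). Under median-ratio scaling the decrease at 24 h was called (adjusted p = 0.00559), and under quantile normalization its sign turned.

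**Figure D3:**
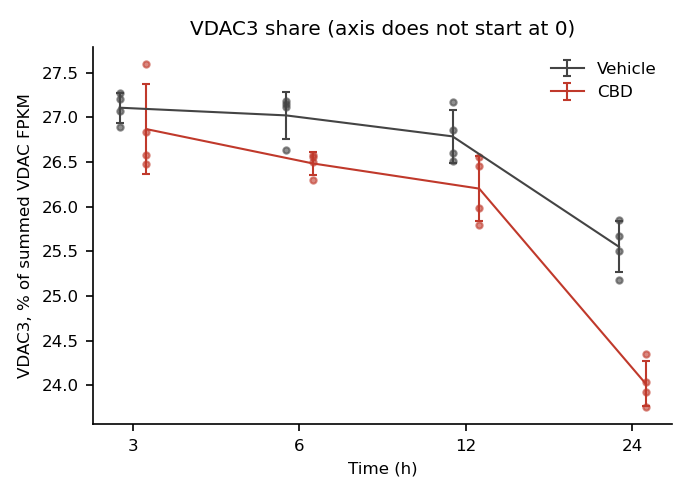
VDAC3 as a percentage of the summed FPKM of VDAC1, VDAC2 and VDAC3, in each sample by time, with lines through the means ± SD of 4 samples; the axis does not start at 0. The share falls from 27.1% in vehicle at 3 h to 25.6% in vehicle and 24.0% in CBD samples at 24 h.

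Within the VDAC family VDAC3 made up a slightly smaller share with CBD, a comparison that does not depend on scaling between samples. Only the share of VDAC3 was tested, chosen after VDAC3 had been called lower on the same values. The p-values of the share are therefore no separate support for that call. At 24 h VDAC3 made up 24.0% of the summed VDAC FPKM with CBD (23.8 to 24.4) and 25.6% in vehicle (25.2 to 25.9). The groups did not overlap, and the exact two-sided permutation test gave p = 0.0286, the smallest that 4 against 4 samples allow. The share was also lower with CBD at 6 h, by 0.538 percentage points, and with no overlap. At that time the other 2 shares moved more. VDAC1 held 34.8% with CBD and 33.4% in vehicle, and VDAC2 38.7% and 39.6%, differences that were not tested. At 3 and 12 h the ranges overlapped, and averaged over the times the difference was -0.724 percentage points (p = 3.26e-05 from an exact two-sided permutation test that exchanged treatment labels at each time). Summed VDAC FPKM at 24 h was 405 ± 5.26 with CBD and 422 ± 7.31 in vehicle (SD, n = 4).

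VDAC2 and TRPV1 were the members called lower with CBD for which RefSeq promoter windows were at hand, 2 for each; 7 of the 10 members matched an entry there. One window of each is printed here, on GRCh38.p14, a build other than that of the expression data, each with 300 bases around a transcription start. Capitals mark GC boxes (GGGCGG) and the E-box (CACGTG), searched on both strands.
VDAC2, chr10:75210546-75210845, plus strand: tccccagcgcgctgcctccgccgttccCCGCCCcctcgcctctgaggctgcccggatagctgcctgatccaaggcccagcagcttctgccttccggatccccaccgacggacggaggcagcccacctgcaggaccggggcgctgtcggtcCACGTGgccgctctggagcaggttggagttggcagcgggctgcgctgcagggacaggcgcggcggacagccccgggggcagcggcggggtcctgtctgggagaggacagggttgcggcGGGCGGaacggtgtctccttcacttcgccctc
TRPV1, chr17:3596993-3597292, minus strand: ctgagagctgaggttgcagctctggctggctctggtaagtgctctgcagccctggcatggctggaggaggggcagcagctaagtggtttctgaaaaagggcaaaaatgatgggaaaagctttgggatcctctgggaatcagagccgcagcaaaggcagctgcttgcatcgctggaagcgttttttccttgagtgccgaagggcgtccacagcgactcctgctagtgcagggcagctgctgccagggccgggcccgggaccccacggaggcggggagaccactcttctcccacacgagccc
The VDAC2 window held 2 GC boxes and 1 E-box, motifs found in 45.0% and 7.26% of all 35116 promoter windows. The TRPV1 window and the other window of each gene held neither, and no window of the 4 held a CRE (TGACGTCA), an ARE core (TGACNNNGC), a CCAAT box (CCAAT) or an NRF1 core (GCGCATGC), found in 1.85%, 13.3%, 34.6% and 3.05% of all windows. These matches describe letters and were not tested against the expression values.

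TRPV1, the capsaicin receptor, was the other member called lower at 24 h. The CBD samples were at 1.78, 1.92, 1.88 and 1.80 FPKM and the vehicle samples at 2.25, 2.37, 2.37 and 2.29. The groups did not overlap, with a log2 fold change of -0.22 ± 0.03 (adjusted p = 5.23e-06) on the log2(FPKM + 1) scale, which understates changes at this level. The mean FPKM fell by 20.4%. Mean TRPV1 was also below vehicle at 3, 6 and 12 h, by -0.13 ± 0.03, -0.10 ± 0.03 and -0.05 ± 0.03 (adjusted p = 0.0216, 0.0362 and 0.339), with overlapping samples at each. It was called at 3 h without CBD replicate 1 (adjusted p = 0.00619) and at 6 h without vehicle replicate 1 (adjusted p = 0.00987). Other settings went the other way. At 3 h the adjusted p was 0.0786 without CBD replicate 2 and 0.213 with the samples of that time fitted alone. At 6 h it was 0.123 without vehicle replicate 3 and 0.10 with the samples fitted alone. Averaged over the 4 times, TRPV1 differed by -0.13 (exact two-sided permutation test within times, p = 2.58e-06). SHPK, which overlaps it on the same strand, was called lower at 12 and 24 h by 0.20 and 0.18 on the log2 scale, at 2.96 ± 0.119 FPKM with CBD and 3.49 ± 0.198 in vehicle at 24 h (SD, n = 4). The part of shared reads in the TRPV1 difference was not tested.

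FAAH and SLC29A1 were not called with CBD at any time. FAAH differed by at most 0.09 in either direction, and at 24 h the difference was -0.01 with a 95% interval from -0.14 to 0.11. The CBD samples at 24 h were at 3.32, 3.63, 3.53 and 3.17 FPKM and the vehicle samples at 3.58, 3.70, 3.20 and 3.33, which overlapped almost fully. SLC29A1 at 24 h was at 99.5, 104, 93.5 and 95.9 FPKM with CBD and 87.5, 93.6, 91.6 and 89.5 in vehicle, with overlap between a single sample of each group. Its difference of 0.12 had a 95% interval from 0.01 to 0.23 and an adjusted p of 0.071. At 3 h CBD replicate 1 was at 86.1 FPKM, away from the other 3 CBD samples at 69.2 to 71.5.

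**Figure D4:**
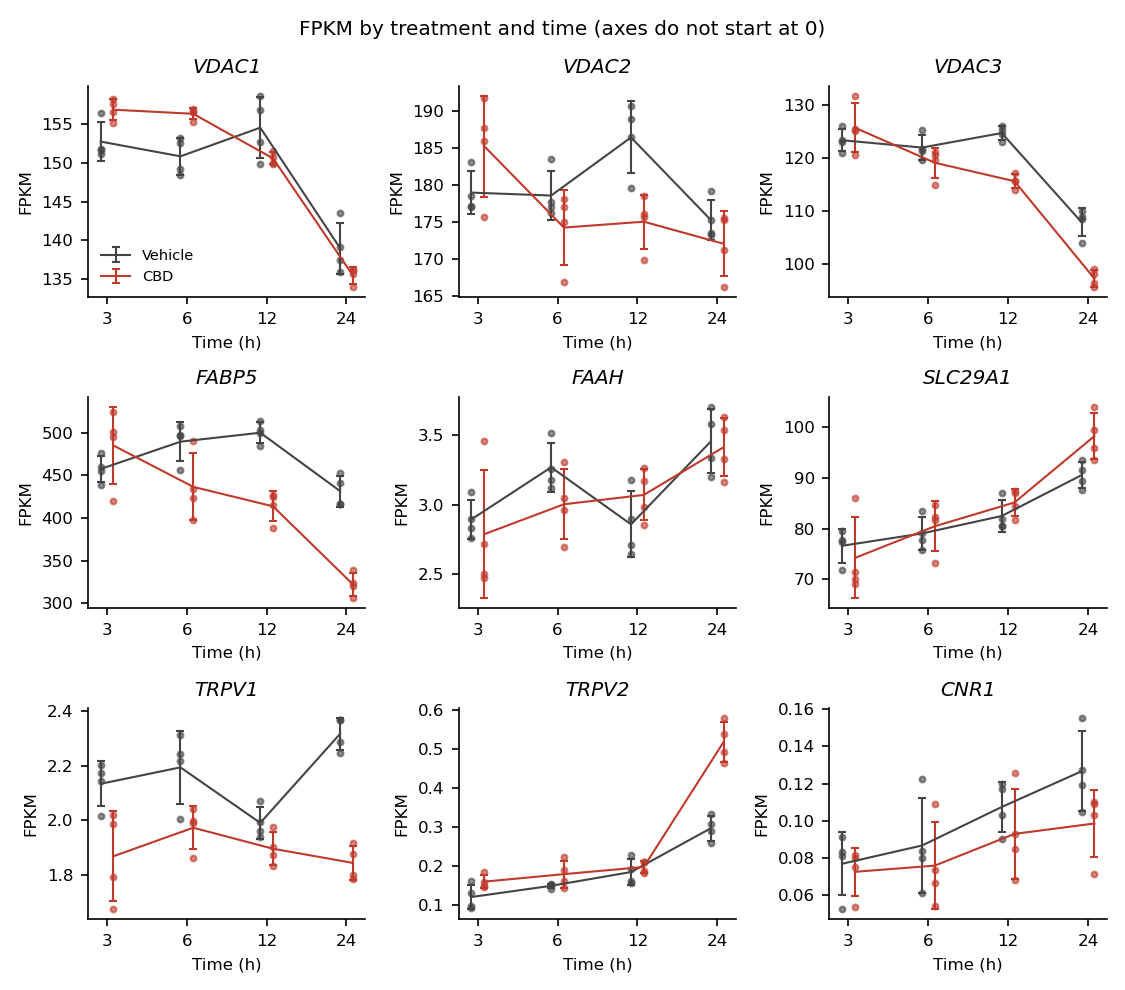
FPKM of 9 members by time in vehicle (grey) and CBD (red), with each sample as a point and lines through the means ± SD of 4 samples; the axes do not start at 0. FABP5 and VDAC3 lie lower with CBD than with vehicle at 12 and 24 h, TRPV1 stays near 1.9 FPKM with CBD while vehicle reaches 2.32 at 24 h, and TRPV2 reaches 0.518 with CBD against 0.297 in vehicle.

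The 3 members under the filter were tested in a fit of all 22610 entries. At 24 h TRPV2 was called higher, and CNR1 and GPR55 were not, where 26.8% of entries were called and 14.4% were called higher. TRPV2 was at 0.581, 0.463, 0.537 and 0.492 FPKM with CBD and 0.307, 0.289, 0.258 and 0.334 in vehicle. All CBD samples lay above all vehicle samples. The log2 fold change was 0.23 ± 0.02 with 1 added before the logarithm (adjusted p = 2.2e-08) and 0.64 ± 0.09 with 0.1 added (adjusted p = 4.96e-06), and the ratio of mean FPKM was 1.75. Even so TRPV2 stayed below 1 FPKM in every sample. At 3, 6 and 12 h it was not called, at 0.160, 0.179 and 0.198 FPKM with CBD against 0.120, 0.149 and 0.184 in vehicle, with overlap at each.

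CNR1 was not called at any time. At 24 h its CBD samples were at 0.110, 0.0716, 0.103 and 0.109 FPKM and its vehicle samples at 0.119, 0.105, 0.155 and 0.127. The ranges overlapped, and with 0.1 added the difference of -0.19 had a 95% interval from -0.41 to 0.03. Mean CNR1 was below vehicle at each of the 4 times, with a mean difference of -0.02 (exact two-sided permutation test within times, p = 0.0469). In the same family of 10 exact tests, TRPV2 (0.08, p = 0.000188), FABP5 (-0.20, p = 0.000378) and VDAC3 (-0.07, p = 0.000719) lay beside TRPV1 with p under 0.01. The exact p was 0.10 for VDAC2, 0.192 for GPR55, 0.239 for SLC29A1, 0.561 for FAAH and 0.711 for VDAC1. GPR55 at 24 h was at 0 in 2 CBD and in 2 vehicle samples.

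The second question was how the transcripts changed with time in culture without CBD. Between 3 and 24 h in vehicle 4 of the 7 tested members were called, where 57.8% of all entries were. VDAC1 and VDAC3 were lower at 24 h, by 0.14 and 0.19 on the log2 scale. VDAC1 went from 151 to 156 FPKM at 3 h to 136 to 143 at 24 h, and VDAC3 from 121 to 126 down to 104 to 110. SLC29A1 was higher by 0.24 ± 0.05 (adjusted p = 0.000315), from 71.8 to 79.5 FPKM up to 87.5 to 93.6. FAAH was higher by 0.19 ± 0.06 (adjusted p = 0.00825), a call lost without any 1 of 6 of the 8 samples (adjusted p up to 0.0332, without vehicle replicate 2 at 24 h), under median-ratio scaling (0.021), under quantile normalization (0.227) and without a filter (0.013).

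In the fit of all entries TRPV2 and CNR1 were also higher in vehicle at 24 h than at 3 h, where 38.2% of entries were called. TRPV2 went from a mean of 0.120 to 0.297 FPKM (0.21 ± 0.02, adjusted p = 3.46e-08) and CNR1 from 0.0769 to 0.127 (0.07 ± 0.02, adjusted p = 0.00441). CNR1 at 24 h (0.105 to 0.155) lay above every vehicle sample at 3 h (0.0523 to 0.0914), but the call of CNR1 was lost without vehicle replicate 4 at 3 h (adjusted p = 0.0246), without vehicle replicate 3 or 4 at 24 h (0.0265 and 0.0105), with these groups fitted alone (0.0166) and under quantile normalization (0.201). FABP5, VDAC2 and TRPV1 were not called between these times in vehicle.

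In CBD samples 6 of 7 members were called between 3 and 24 h, where 67.8% of all entries were. FABP5, VDAC3, VDAC1 and VDAC2 were lower by 0.59, 0.37, 0.21 and 0.11, and SLC29A1 and FAAH were higher by 0.40 and 0.23. The call of FAAH was lost without CBD replicate 3 or 4 at 3 h (adjusted p = 0.0118 and 0.0125), under median-ratio scaling (0.0114), under quantile normalization (0.237) and with these groups fitted alone (0.0416), and that of VDAC2 with the groups fitted alone (0.0189). TRPV1 was not called (-0.01 ± 0.03), except under quantile normalization (-0.18, adjusted p = 4.77e-05). TRPV2, in the fit of all entries, was higher by 0.39 ± 0.02 (1.25 ± 0.09 with 0.1 added), where 47.2% of entries were called. Each of these comparisons holds the time in culture as well as the treatment.

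The third question was whether the difference between CBD and vehicle itself changed from 3 to 24 h. It did so for 2 of the 7 tested members, where 27.2% of all entries were called. For FABP5 the difference went from 0.08 at 3 h to -0.42 at 24 h, a change of -0.50 ± 0.08 (adjusted p = 2.13e-05). For VDAC3 it went from 0.03 to -0.15, a change of -0.18 ± 0.03 (adjusted p = 8.54e-05). For TRPV1 the change was -0.09 ± 0.05 (adjusted p = 0.134), so that a larger difference at 24 h than at 3 h was not shown. SLC29A1, whose change was 0.17 ± 0.08 (adjusted p = 0.0845), was called without CBD replicate 1 at 3 h (adjusted p = 0.0025), and VDAC1 (-0.08 ± 0.02, adjusted p = 0.0164) was called without vehicle replicate 1 at 3 h (0.00682) or at 24 h (0.00747) and under median-ratio scaling (-0.10, adjusted p = 0.00317). In the fit of all entries, where 16.4% were called, TRPV2 had a change of 0.18 ± 0.03 (adjusted p = 0.000274), which was not called with 0.1 added before the logarithm (0.39 ± 0.13, adjusted p = 0.0336).

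Genes around the members were read from 6 lists of related genes, as counts beside the median of all entries tested, which lay between -0.01 and 0.01 on the log2 scale at each of the 4 times.

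**Figure D5:**
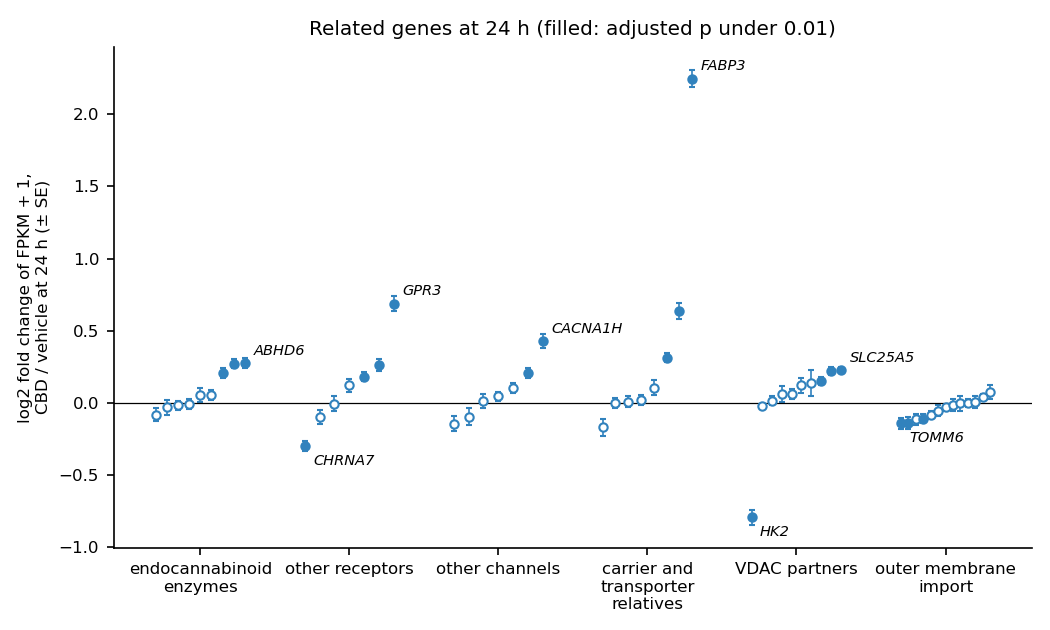
Log2 fold change of FPKM + 1, CBD over vehicle at 24 h, with its standard error, for tested genes of the 6 lists; filled points have an adjusted p under 0.01, and the largest called rise and fall among the genes drawn is named for each list. FABP3 lies furthest above 0 at 2.25 and HK2 furthest below at -0.80; most other genes lie within 0.5 of 0.

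Among enzymes of endocannabinoid synthesis and breakdown other than FAAH, 9 of 13 were expressed in vehicle, so that FAAH at 3.12 FPKM was in company at up to 23.0 FPKM (ABHD12). At 12 h NAAA was higher by 0.14 and GDE1 lower by 0.14. At 24 h 3 were called higher and none lower, with a median of 0.05 over the 9 tested. Of all 12621 entries 2623 were called higher and 2691 lower at that time. These were ABHD6 (0.27 ± 0.04) and MGLL (0.27 ± 0.03), which hydrolyse 2-arachidonoylglycerol, and NAAA (0.21 ± 0.04), an acid amidase of acylethanolamines. FAAH2 was near 0, at 0.0159 FPKM.

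Of 20 other proposed CBD receptors in the table, 7 were expressed in vehicle and 8 were near 0, among them CNR2, the second cannabinoid receptor, at 0.0143 FPKM. GPR3, a constitutively active receptor, was called higher at every time, by 0.27, 0.47, 0.62 and 0.69 at 3, 6, 12 and 24 h. At 24 h it was at a mean of 2.01 FPKM with CBD and 0.870 in vehicle, and the groups did not overlap. The opioid receptor OPRD1 (0.26 ± 0.04) and the nuclear receptor PPARA (0.18 ± 0.03) were also higher at 24 h. The nicotinic receptor subunit CHRNA7 was lower by 0.18 at 12 h and by 0.30 at 24 h. Of the 7 tested, 3 were called higher and 1 lower at 24 h, with a median of 0.12. At that time 2623 of all 12621 entries were called higher and 2691 lower.

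Of 16 other ion channels proposed as CBD targets, 8 were expressed, and TRPV3 and TRPV4, the nearest relatives of TRPV1 and TRPV2, were near 0 at 0.001 FPKM each. CACNA1H, a T-type calcium channel, rose by 0.22 and 0.43 at 12 and 24 h, and SCN8A by 0.21 at 24 h. Of all 12621 entries 2623 were called higher with CBD at 24 h. Between 3 and 24 h in vehicle, 7 of the 8 tested were called higher, led by CACNA1H at 0.87, where 26.6% of all entries were called higher.

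Of 17 relatives of FABP5 and SLC29A1 listed in the FPKM data, 8 were expressed. Of these, 3 were called higher with CBD at 6, 12 and 24 h, where 514, 1117 and 2623 of all 12621 entries were. FABP3, the heart-type fatty acid carrier, was higher by 0.37, 1.34 and 2.25 at 6, 12 and 24 h. At 24 h it was at 48.5 to 62.7 FPKM with CBD and 10.8 to 11.2 in vehicle, so that FABP5 at 305 to 339 remained above it. CRABP2, a retinoic acid carrier of the same superfamily, was higher by 0.31 ± 0.03 at 24 h, and SLC29A2, the second equilibrative nucleoside transporter, by 0.64 ± 0.06. The median of the 8 tested was 0.06 at 24 h.

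Partners of VDAC in the mitochondrial envelope were all expressed, 11 of 11 in the table, and 10 were tested. HK2, a hexokinase known to dock on VDAC1, was lower with CBD by 0.19, 0.40 and 0.80 at 6, 12 and 24 h. At 24 h HK2 stood at 7.92 to 9.63 FPKM with CBD against 15.1 to 17.7 in vehicle. HK1, the more abundant hexokinase at 60.6 FPKM in vehicle, was not called at 24 h (-0.03 ± 0.02). SLC25A5, an ADP/ATP carrier of the inner membrane, was higher by 0.23 ± 0.02, HSPA9, the mitochondrial HSP70, by 0.22 ± 0.03, and MCU, the calcium uniporter, by 0.15 ± 0.03. Of the 10 tested, 3 were called higher and 1 lower at 24 h, with a median of 0.09. At that time 2623 of all 12621 entries were called higher and 2691 lower.

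Of the other genes of outer membrane import and assembly, all 13 in the table were expressed. At 6 h TOMM6, a small subunit of the import pore, was higher by 0.14. At 24 h 3 of the 13 were called lower, close to the 21.3% of all entries called lower. These were TOMM6 by 0.14, TOMM5 by 0.14 and TOMM34 by 0.11, with a median of -0.03 over the list. In vehicle 8 of the 13 were called lower at 24 h than at 3 h, with a median of -0.16, the direction of VDAC1 and VDAC3, where 31.1% of all entries were called lower.

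Markers of the line moved as well, and their part in the values of the members was not tested. Of the 12 adrenergic markers 7 were called lower with CBD at 24 h and 1 higher, with a median of -0.18. Of all 12621 entries 2691 were called lower and 2623 higher. DBH, the enzyme that makes noradrenaline, fell from 12.1 to 13.9 FPKM in vehicle to 3.74 to 4.23 with CBD, and MYCN was higher by 0.54 ± 0.04. Summed over the list, the markers ranged from 4421 to 4937 FPKM in vehicle and from 4619 to 5306 with CBD. MYCN, the 1 marker called higher, is the largest part of this sum, at a mean of 1526 FPKM in vehicle. The sum therefore does not show the decrease of the other markers. Keratinocyte markers summed to 0.40 to 0.589 FPKM in vehicle and 0.441 to 0.645 with CBD, with KRT5 listed at 0 in 15 of 16 vehicle samples. Mesenchymal markers summed to 16.1 to 18.6 FPKM in vehicle and 14.6 to 18.0 with CBD, with SNAI2 higher by 0.43 and FOSL2 lower by 0.34 at 24 h.

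The genes most like each expressed member were found by Pearson's r of the 8 group means of log2(FPKM + 1), a description over points that share the same vehicle and CBD samples. ATP5E (0.993), PEBP1 (0.988) and RPA1 (0.988) were most like VDAC1. MFF (0.973), VPRBP (0.924) and GNPAT (0.916) were most like VDAC2, and ILF2 (0.996), DDB1 (0.995) and HMGN1 (0.994) most like VDAC3. For FABP5 they were CRNKL1 (0.995), BAP1 (0.994) and CARS2 (0.993), and for SLC29A1 PCGF2 (0.999), LRCH2 (0.996) and NYAP1 (0.995). For FAAH they were ANKRD26 (0.970) and GGA1 (0.963), and for TRPV1 MIR6764 (0.991), LRGUK (0.950) and DUSP5P1 (0.948).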

How the data were processed

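RNA-Seq of 32 samples was measured as single reads of 50 bases. The authors trimmed reads with Trimmomatic (version 0.36), mapped them with Tophat to the hg19 genome and estimated FPKM in each sample by Cufflinks. Per the labels the library was a Nugen preparation, and the study's methods name TruSEQ. The deposited FPKM table was used as given. It records no depth, so intervals for counting error could not be set. A second deposited table, of the authors' own comparisons, was not used.

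FPKM were transformed to log2(FPKM + 1). In limma (version 3.58.1, R version 4.3.3, eBayes with trend) a single model of the 8 groups was fitted to entries with a mean of at least 1 FPKM, and p-values were adjusted by Benjamini-Hochberg in each comparison. Members under that mean were tested in a fit of all entries, also with 0.1 added. Exact permutation tests exchanged labels within times. The fits were tested on simulated data. Positions and shared 50-base words came from GENCODE version 44 on GRCh37. Replicate numbers showed no pairing of CBD with vehicle within a time: the correlation of deviations in 16 pairings ranged from -0.0757 to 0.0935. These correlations do not cover what a replicate number may share across times. With a replicate block the entries called rose from 310 to 447 at 3 h and from 5314 to 5641 at 24 h. No 2 samples were identical.

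All 10 members are named, with copies bearing their symbols, the called gene with the largest rise and fall of each list, and up to 3 genes most like each expressed member (2 genes that this rule selects are not reported here); other list genes named were chosen after their values were seen. The members and lists were chosen with earlier results of these data known. Alternatives were a value of 0.1 or 5 added, other filters, median-ratio scaling, quantile normalization, separate fits, a replicate block, robust eBayes and each sample left out.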

Additional observations from a re-analysis of the deposited data

Results flagged for a closer look

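The difference between CBD and vehicle changed between 3 and 24 h for VDAC3 (-0.1752 on the log2 scale, adjusted p = 8.54e-05), for FABP5 (-0.501, adjusted p = 2.13e-05) and, in the fit of all entries, for TRPV2 (0.1769, adjusted p = 0.000274), each by limma's test of the difference itself. TRPV2 was not called with 0.1 added before the logarithm (0.39, adjusted p = 0.0336).

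In 2 groups of 4 samples of VDAC1 and SLC29A1, 1 sample lay far from the other 3, as chance gives in about 1 in 20 groups. VDAC1 in vehicle replicate 1 at 3 h was at 156.479 FPKM against 151 to 152 in the others. SLC29A1 in CBD replicate 1 at 3 h was at 86.1162 FPKM against 69.2 to 71.5. In the same library FABP5 was the lowest of its group (419 FPKM) and FAAH the highest (3.46 FPKM). GPR55 was at 0.00234907 FPKM in vehicle replicate 4 at 3 h and at 0.00268904 FPKM in CBD replicate 4 at 12 h, with the other 3 samples of each group listed at 0, so that any value above 0 stands apart there by construction.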

How the results depend on the processing

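The calls of FABP5 and VDAC3 at 12 and 24 h, and of TRPV1 and TRPV2 at 24 h, were kept under every alternative that could be computed for them, each sample left out included (TRPV1 and TRPV2 were not tested at a mean FPKM of at least 5, which only 5 members reached). VDAC2 at 12 h lost its call under 10 alternatives (adjusted p up to 0.0358), with the replicate block among them, where 2 members were called at 12 h in place of 3; the block changed no other call of a member. With each sample left out, the members called ranged from 0 to 1 at 3 h (TRPV1 without CBD replicate 1) and from 0 to 1 at 6 h (FABP5 without CBD replicate 4, TRPV1 without vehicle replicate 1), from 2 to 3 at 12 h, from 3 to 5 in the F-test, from 3 to 4 between 24 and 3 h in vehicle, from 5 to 6 between 24 and 3 h with CBD and from 2 to 3 for the change of the difference; at 24 h 3 were called in each. Signs turned for differences near 0 that were not called: under quantile normalization VDAC1 and VDAC2 at 24 h (0.002021 and 0.03084) and VDAC2 and VDAC3 at 3 h (-0.01632 and -0.006328); without 1 sample FAAH at 24 h (range -0.04152 to 0.01394), SLC29A1 at 6 h (-0.0002221 to 0.06764) and CNR1 at 3 h (-0.0168 to 0.002684) and 6 h (-0.029 to 0.001203); and under median-ratio scaling the mean of VDAC1 over the 4 times (-0.0005477). Medians of all genes moved by under 0.1 in each setting, but median-ratio scaling gave 2221 higher and 3243 lower calls at 24 h, against 2623 and 2691. FPKM near 0 limit CNR1 and GPR55.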
